A study of Homo sapiens with 8 samples.

Results

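Single-exon stop codon m6A peaks are regions enriched by an antibody against N6-methyladenosine (m6A) that carry a stop codon label, carry no 5′ UTR label and lie within 1 exon. They were chosen from the authors' deposited peak lists as peaks in which the genomic span exceeded the summed length of the exonic blocks by at most 20 nt. The rule took 2569 of 13219 peaks in the DF2 siRNA list, against 2579 of 15730 peaks in the control list. The cells were U2OS, a human osteosarcoma line, and the assay was m6A immunoprecipitation followed by sequencing of fragmented cytoplasmic RNA. The 4 groups were DF2 siRNA immunoprecipitates, DF2 siRNA inputs, control immunoprecipitates and control inputs, with 2 libraries each and 8 in all. DF2 is a usual short name of YTHDF2. The DF2 siRNA libraries are numbered 1 and 2 in the labels, which leaves unsaid whether the numbers stand for different siRNAs or for repeats of 1 siRNA, and what the control cells received. The authors gave 1 peak list per condition, tied to both immunoprecipitates, so no value below has a replicate error. Intervals are exact 95% Clopper-Pearson intervals for shares and normal 95% intervals for differences, and they cover counting error only.

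As background, m6A is the most abundant internal modification of mRNA, and a complex built around METTL3 and METTL14 writes it in a short sequence context of which GGACT is the best-known form. In mammalian mRNA it gathers around stop codons and in long last exons. YTHDF2, a reader of the mark in the cytoplasm, directs the bound mRNA to deadenylation and decay.

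No genome of the files' build was used here, so sequence could be printed only where a member overlapped a RefSeq promoter window of a neighbouring gene (GRCh38.p14, 250 bases before to 50 after a gene's start). That was so in 25 genes with a DF2 siRNA member and 32 genes with a control member. GGACT was searched on the strand of the peak and found in 4 of 29 such stretches in DF2 siRNA members and 6 of 35 in control members. Of all 34961 RefSeq promoter windows of 300 bases, 25.3% held it on the strand of their gene and 44.1% on either strand. Whole windows made up 10 of the DF2 siRNA stretches, of which 2 held the motif, and 11 of the control stretches, of which 3 held it. The 6 genes with a match are shown 5′ to 3′ on the strand of the peak, 30 bases each with GGACT in capitals, to show the surroundings of the motif inside members.
TAF6L, chr11:62787256-62787285, plus strand: ggtgggcgctctcGGACTactcgctgtact
PITX3, chr10:102230441-102230470, minus strand: tcacagcctccgcGGACTggggtcattttg
TMEM79, chr1:156291528-156291557, plus strand: ccgagagccgcctGGACTacccggaccacg
ENTHD2, chr17:81228727-81228756, minus strand: tGGACTtgaatccctacgagggatggcagg
NFYA, chr6:41097994-41098023, plus strand: ggttgatatttctGGACTctagccaagaaa
THAP7, chr22:21001672-21001701, minus strand: gcggaacggtcccggcgGGACTgaatgcag
Their peaks ranged widely in the authors' fold enrichment. TMEM79 had 77.8 in the DF2 siRNA list, against 201 in the control list, PITX3, a homeodomain factor, had 35.1 under DF2 siRNA and 34.6 in control, and TAF6L, a histone acetyltransferase complex subunit, had 26.8 under DF2 siRNA and 22.3 in control. The NFYA peak (97.6; NFYA is a subunit of the CCAAT-binding factor NF-Y) was a member in the control list. A match describes these letters and does not place a methylated base.

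The targeted gene itself had a single-exon stop codon peak in the DF2 siRNA list, chr1:28742575-28743974, 1400 nt wide, with 52.3 as fold enrichment and 185 as score. This peak was labelled coding and stop codon without 3′ UTR. The overlapping control peak, chr1:28740371-28769316, ran from the 5′ UTR to the stop codon over 2000 nt of exon. It had 124 as fold enrichment and 4226 as score. The labels do not name a transcript, so which transcript's stop codon the DF2 siRNA peak holds is not known. A peak list measures methylated fragments and not mRNA level, so it does not check the knockdown. Among markers of osteoblasts and mesenchyme, 4 of 7 had a peak in each list. COL1A1, which encodes type I collagen, had a single-exon stop codon peak in both lists, and RUNX2, the osteoblast transcription factor, had such a peak in the DF2 siRNA list with a fold enrichment of 5.22. Of 5 epithelial markers, 1 had a peak in each list, and of 4 blood cell markers, 1 had a peak in the DF2 siRNA list, against 2 in the control list. The blood cell marker CD14 had a single-exon stop codon peak with 5.76 in the DF2 siRNA list, against 20.4 in the control list. Coordinates are those of the authors' lists, which are on hg38 per the submitters' processing notes.

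Single-exon stop codon peaks made up 19.4% of the DF2 siRNA list (18.8 to 20.1) and 16.4% of the control list (15.8 to 17.0). The DF2 siRNA share exceeded the control share by 3.04 percentage points (2.15 to 3.93). Among stop codon peaks without a 5′ UTR label, 55.3% of 4645 lay in 1 exon in the DF2 siRNA list, against 48.0% of 5378 in the control list, a difference of 7.35 points (5.40 to 9.31). The remaining 2076 DF2 siRNA and 2799 control peaks crossed at least 1 exon junction and are called spliced stop codon peaks below. The intervals of both differences take no account of peaks that the lists share, and 87.5% of all DF2 siRNA peaks were overlapped by a control peak. Each condition has 1 list, so neither difference is read as an effect of the siRNA. The limit of 20 nt decided few cases, since 2566 DF2 siRNA members and 2575 control members had no gap at all. Just inside the limit lay IMP4 with 14 nt in both lists, and just outside lay PRICKLE4 with 25 nt, UBAP2L with 27 nt and MPHOSPH9 with 29 nt in both.

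Most members carried the labels coding, stop codon and 3′ UTR together, 2334 (90.9%) in the DF2 siRNA list, against 2345 (90.9%) in the control list. A smaller set of 191 DF2 siRNA and 179 control members had coding and stop codon labels alone. Members were more frequent on chromosome 19 than other peaks of the same list. There, 11.0% of DF2 siRNA members lay, against 6.85% of the other DF2 siRNA peaks, a difference of 4.12 points (2.82 to 5.42). In the control list the shares were 10.6% of members and 5.90% of other peaks, a difference of 4.68 points (3.43 to 5.94). Genes with members spanned less of the genome than genes with spliced stop codon peaks. In the DF2 siRNA list the median RefSeq gene span was 28244 nt for members and 42273 nt for spliced stop codon peaks, and in the control list 28250 nt for members and 47629 nt for spliced peaks. Genes of at most 5000 nt were 10.5% of DF2 siRNA member genes and 3.95% of genes with spliced peaks there, and in the control list 10.7% of member genes and 3.38% of genes with spliced peaks. A gene without a junction cannot hold a spliced peak, so a difference in this direction is built into the comparison. Between 91.8% and 92.4% of gene names had a RefSeq span.

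Members had a median exonic width of 600 nt in the DF2 siRNA list (quartiles 400 and 1000, range 70 to 7191) and 710 nt in the control list (400 and 1157.5, range 77 to 5000). Spliced stop codon peaks had a median of 800 nt in both lists. Widths were a multiple of 200 nt in 88.2% of DF2 siRNA members and 84.4% of control members, so edges are known to steps of about 200 nt. The fold enrichment and the score are the authors' own values per peak, and their baseline and meaning are not stated in the sources at hand. The median fold enrichment was 23.1 in DF2 siRNA members (quartiles 13.3 and 43.0) and 29.8 in control members (15.1 and 54.9). The median over all peaks of the list was 17.7 in the DF2 siRNA list, against 20.8 in the control list. Spliced stop codon peaks had higher medians than members, 29.4 in the DF2 siRNA list, against 35.0 in the control list. Wider members had higher fold enrichment within each list. Members of up to 200 nt had a median of 9.96 in the DF2 siRNA list, against 9.90 in the control list, and members over 2000 nt had 62.1 in the DF2 siRNA list, against 58.6 in the control list.

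**Figure D1:**
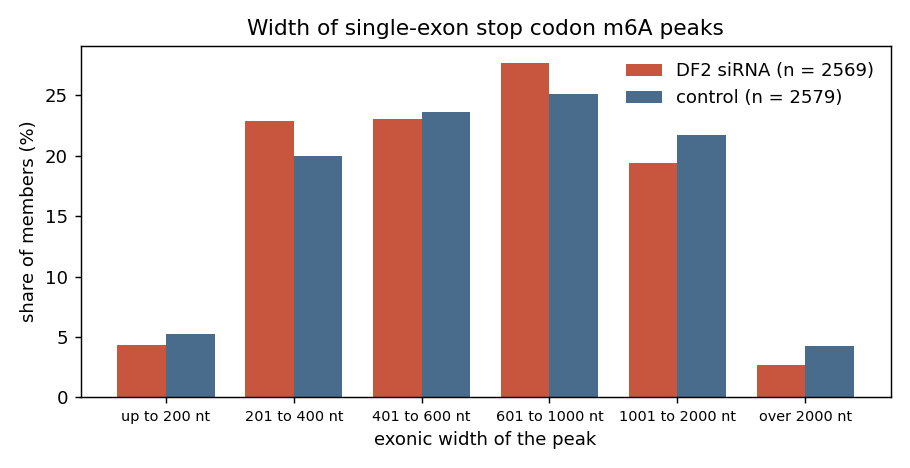
Share of single-exon stop codon peaks (vertical axis, %) in 6 classes of exonic width (horizontal axis, nt), for 2569 DF2 siRNA and 2579 control members. Peaks of 201 to 400 nt were 587 of the DF2 siRNA members and 516 of the control members, and peaks over 2000 nt were 2.65% of DF2 siRNA members and 4.27% of control members.

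The 2 widest DF2 siRNA members lay in genes of very large proteins. PLEC, which encodes the cytolinker plectin, had a peak of 7191 nt in the DF2 siRNA list, against 5000 nt in the control list. AHNAK, a giant scaffold protein, had 5800 nt in the DF2 siRNA list, against 3000 nt in the control list. GLI2, a transcription factor of the Hedgehog pathway, had 3800 nt in both lists, shifted by 200 nt. In the zinc finger gene ZNF292 the order was the other way, with 800 nt in the DF2 siRNA list, against 5000 nt in the control list. MAST4, a kinase gene, had 3600 nt in the DF2 siRNA list, against 3800 nt in the control list.

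The highest fold enrichment in the DF2 siRNA list was 271 at DAPK3, which encodes a death-associated protein kinase, at chr19:3958453-3959601. The control list had the same 1149 nt interval with 216. IER5L, an immediate early response family gene, had 234 in both lists, and its 3′ edge lay 600 nt less far in the DF2 siRNA list. LRFN1, a synaptic adhesion gene, had 225 in the DF2 siRNA list, against 293 in the control list, where it was the member of highest fold enrichment. These peaks were thus near the top of both lists. ZNF865, a zinc finger gene, had 229 over 2400 nt in the DF2 siRNA list, against 117 over 1200 nt in the control list. DIDO1, a chromatin-associated protein, had 206 in the DF2 siRNA list, against 212 in the control list. PITX1, a homeodomain factor of hindlimb development, had 191 in the DF2 siRNA list, against 84.9 in the control list over the same 1000 nt. RBM12B, TIGD5, AP5B1 and FBXO46 followed, with 182, 181, 177 and 174 in the DF2 siRNA list, against 102, 174, 139 and 112 in the control list.

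**Figure D2:**
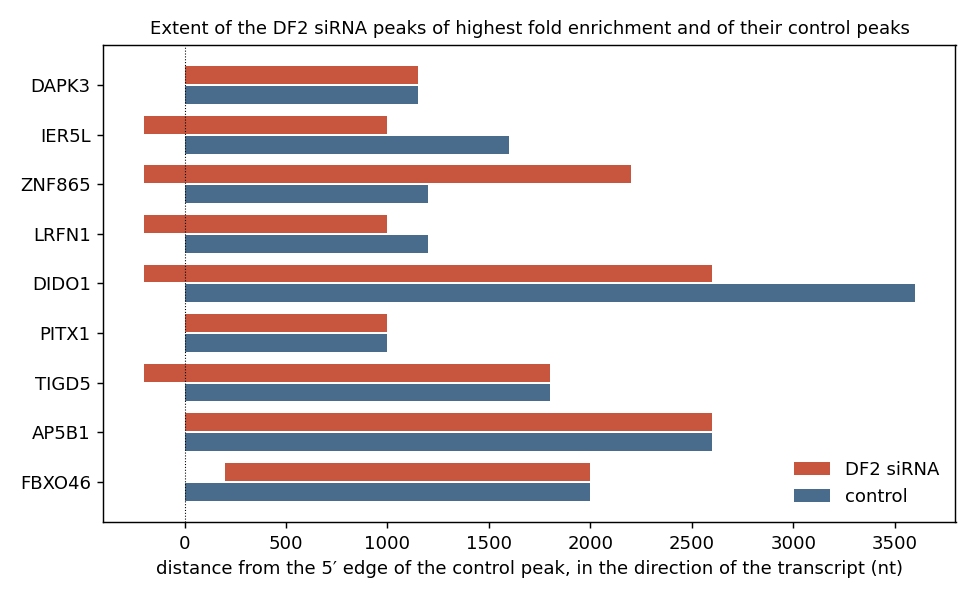
Extent of 9 of the 10 DF2 siRNA members of highest fold enrichment (red) and of the control peak at the same place (blue), as distance in nt from the 5′ edge of the control peak along the transcript. RBM12B is left out because its control peak was spliced. DAPK3, PITX1 and AP5B1 had the same extent in both lists, and DIDO1 reached 1000 nt less far at its 3′ edge in the DF2 siRNA list.

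Several members near the top of the control list had a lower fold enrichment in the DF2 siRNA list. CISH, a cytokine-inducible inhibitor of STAT signalling, had 49.4 with a score of 89 in the DF2 siRNA list, against 259 with a score of 1754 in the control list. TNFAIP8, a TNF-induced gene, had 46.0 in the DF2 siRNA list, against 225 in the control list. GPR39, a zinc-sensing receptor, had 43.9 in the DF2 siRNA list, against 222 in the control list over an identical interval. LMLN, a metalloprotease gene, had 22.2 in a 3′ UTR peak of the DF2 siRNA list and 250 in its control member. EPPK1, which encodes epiplakin, and GFOD1 had 97.4 and 80.5 in the DF2 siRNA list, against 274 and 214 in the control list. Except at LMLN, the DF2 siRNA peaks of these genes still lay above 43.0, the upper quartile of fold enrichment in DF2 siRNA members. These genes were taken for their rank in the control list, and the scales of the lists are not known to be comparable, so no difference in methylation is read from them.

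A control peak shared at least 1 exonic base on the same strand with 2360 of 2569 DF2 siRNA members, 91.9% (90.7 to 92.9), beside 87.5% of all DF2 siRNA peaks. A DF2 siRNA peak overlapped 2098 of 2579 control members, 81.3% (79.8 to 82.8), beside 71.9% of all control peaks. Both intervals lie above the share over the whole list. Members also had higher scores, with a median of 113 against 74 over all DF2 siRNA peaks, and 258 against 143 over all control peaks. The comparison with the whole list was not made within score. No peak of the other list was found for 209 DF2 siRNA members and 481 control members. The interval was identical in both lists for 893 members, 34.8% of DF2 siRNA members (35.1% of all DF2 siRNA peaks) and 34.6% of control members (29.5% of all control peaks). The identical share of DF2 siRNA members was therefore at the background of its list.

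Spliced stop codon peaks were the nearest class for comparison. In the DF2 siRNA list, single-exon peaks were overlapped less often than spliced ones, 2360 of 2569 against 1972 of 2076, a difference of -3.13 points (-4.54 to -1.71). In the control list the shares were 81.3% and 84.1%, a difference of -2.72 points (-4.74 to -0.69). The DF2 siRNA difference was -0.60 points (-2.32 to 1.12) within width classes and -1.53 points (-3.15 to 0.09) within score quintiles, intervals that include 0. The control difference turned to 3.25 points (1.13 to 5.37) within width classes and to 2.10 points (0.09 to 4.12) within score quintiles, and with a reciprocal overlap of 50% it was -2.26 points (-4.55 to 0.02). Single-exon peaks were narrower and of lower score than spliced peaks in both lists. In control peaks of 401 to 600 nt, the single-exon share exceeded the spliced share by 9.03 points (4.78 to 13.3). Identical intervals were less frequent among single-exon than spliced peaks in the DF2 siRNA list, by -8.78 points (-11.6 to -5.97), and the control difference was 2.33 points (-0.20 to 4.85). Each list held 893 single-exon and 904 spliced peaks with an identical interval, so the lists differ here only through their class totals.

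The share overlapped went up with the deposited score, most steeply in the control list. From the lowest to the highest score quintile of the list, 82.5%, 87.0%, 89.3%, 94.9% and 98.4% of DF2 siRNA members were overlapped. In the same order, the shares of control members were 30.8%, 63.5%, 82.4%, 92.2% and 97.5%. Width showed the same order: 65.8% of DF2 siRNA members and 32.4% of control members of up to 200 nt were overlapped, and 98.5% of DF2 siRNA members and 98.2% of control members over 2000 nt were.

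**Figure D3:**
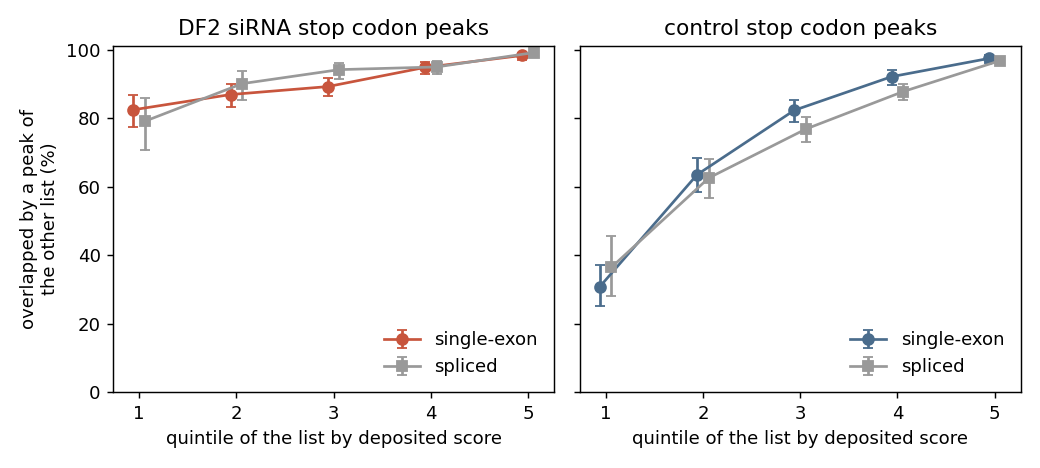
Share of stop codon peaks overlapped by a peak of the other list (vertical axis, %) by quintile of the deposited score within the list (horizontal axis), for DF2 siRNA peaks (left) and control peaks (right). Circles are single-exon and grey squares spliced peaks, with exact 95% intervals; control single-exon peaks go from 30.8% in quintile 1 to 97.5% in quintile 5.

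Members were matched mostly to members. The peak of the other list that shared most bases was itself a single-exon stop codon peak for 1715 DF2 siRNA members (66.8%) and 1714 control members (66.5%). It was a spliced stop codon peak for 380 DF2 siRNA members (14.8%, 13.4 to 16.2) and 142 control members (5.51%, 4.66 to 6.46). It ran from the 5′ UTR to the stop codon for 128 DF2 siRNA members (4.98%) and 61 control members (2.37%). The share at spliced peaks was thus higher for DF2 siRNA members than for control members. The DF2 siRNA list held 2076 spliced peaks and the control list 2799, and the part of that in the shares was not tested. A 3′ UTR peak without the stop codon was the partner of 114 DF2 siRNA members (4.44%) and 132 control members (5.12%), and a coding peak without it of 19 DF2 siRNA members (0.740%) and 46 control members (1.78%). Of the matched members, 82.5% of 2360 DF2 siRNA members and 63.3% of 2098 control members lay wholly inside their partner.

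**Figure D4:**
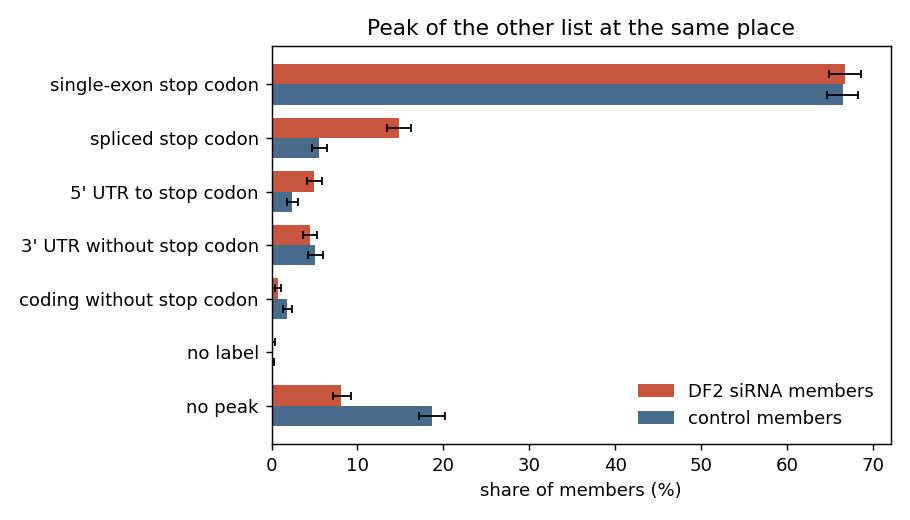
Class of the peak of the other list that shared most bases with a member (vertical axis), as share of DF2 siRNA members (red, above) and control members (blue) with exact 95% intervals. Spliced partners were 14.8% for DF2 siRNA members and 5.51% for control members, and no peak was found for 8.14% of DF2 siRNA members and 18.7% of control members.

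The strongest DF2 siRNA members at spliced control peaks were SUFU, SLC35E1 and CKAP4. SUFU, an inhibitor of Hedgehog signalling, had 146 over 800 nt in the DF2 siRNA list, against 90.3 over 1000 nt in the control list, where the peak crossed into the preceding exon. CKAP4, an endoplasmic reticulum membrane protein, had 108 over 1400 nt in the DF2 siRNA list, against 145 over 1800 nt in the control list. Control peaks that reached the 5′ UTR lay at RBM12B, THAP11 and SERTAD3. THAP11, a zinc finger factor, had 170 in the DF2 siRNA list over 1400 nt and 166 in the control list over 1714 nt. In these genes the DF2 siRNA peak was the narrower of the pair.

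The reverse arrangement, a control member at a spliced DF2 siRNA peak, was led by ROR2, ZSWIM6 and ADAMTS15. ROR2, a receptor of Wnt5a, had 175 in the spliced DF2 siRNA peak and 239 in the control member, both 2200 nt wide. ADAMTS15, an extracellular metalloprotease, had 46.8 over 1600 nt in the DF2 siRNA list, against 170 over 1400 nt in the control list. EXOSC6, a subunit of the RNA exosome, had 166 over 1800 nt in a DF2 siRNA peak that reached the 5′ UTR and 143 over 1400 nt in the control member. CIC, a transcriptional repressor, had 164 over 3000 nt in the DF2 siRNA list, against 167 over 2400 nt in the control list. Partners without a stop codon label included the 3′ UTR control peaks of CELSR2, an adhesion receptor, with 130 in the DF2 siRNA member and 109 in the control peak. MBD3, a subunit of the NuRD complex, had 104 in the DF2 siRNA member and 102 in its control 3′ UTR peak.

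Edges were compared in 1529 pairs in which 1 member of each list overlapped and neither overlapped a further peak of the other list. The interval was identical in 831 pairs (54.3%). The 3′ edge was the same in 995 pairs, the DF2 siRNA peak reached less far in 384 and further in 150. Of the 534 moved 3′ edges, 71.9% (67.9 to 75.7) lay less far in the DF2 siRNA peak, with a median shift of 200 nt in either direction. Of these 534, 365 moved by exactly 200 nt, a size that the lists do not resolve for a single peak. The 5′ edge was the same in 1233 pairs, and 55.7% (49.9 to 61.5) of 296 moved 5′ edges lay less far in the DF2 siRNA peak, an interval that includes equal numbers. The rule itself limits the 5′ edge, since a peak that extends over a junction is no longer a member. Over both edges, the DF2 siRNA peak was narrower in 449 pairs, wider in 228 and of the same width in 852.

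The 3′ shift was in the same direction across DF2 siRNA score quintiles, with 82.8% of moved 3′ edges less far in the DF2 siRNA peak in quintile 1 and 62.1% in quintile 5. By control score the count was 11 of 22 moved edges in quintile 1, and the shares were 72.9%, 74.3%, 71.3% and 73.2% from quintile 2 to 5. At the 5′ edge the direction was not the same across score quintiles. By DF2 siRNA score, 81.8% (67.3 to 91.8) of moved 5′ edges lay less far in the DF2 siRNA peak in quintile 1 and 36.3% (25.8 to 47.8) in quintile 5. By control score the shares were 53.8%, 76.2%, 57.4%, 54.9% and 46.2% from quintile 1 to 5. The interval of quintile 2 (60.5 to 87.9) lay above equal numbers. Those of the other quintiles include equal numbers, among them quintile 1 (25.1 to 80.8) and quintile 5 (35.6 to 56.9). Among 514 moved 3′ edges of spliced pairs, 79.0% lay less far in the DF2 siRNA peak, and single-exon pairs differed from that by -7.08 points (-12.3 to -1.89). The median score was 113 in DF2 siRNA members and 258 in control members. Library depth is unknown, and its part in these edges was not tested.

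**Figure D5:**
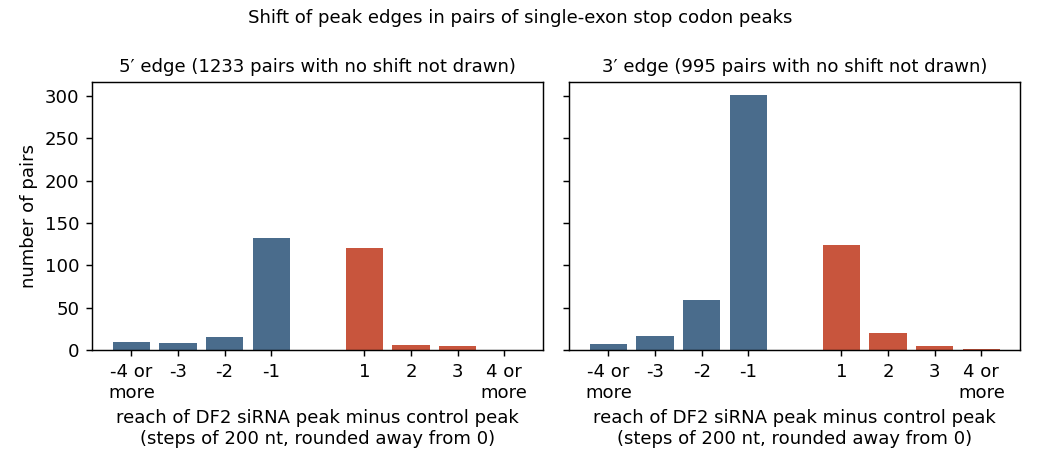
Number of pairs (vertical axis) by how much further (positive, red) or less far (negative, blue) the DF2 siRNA peak reached than the control peak, in steps of 200 nt, at the 5′ edge (left) and the 3′ edge (right). At the 3′ edge 301 pairs lay at -1 and 124 at 1, while at the 5′ edge 132 lay at -1 and 120 at 1.

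The pairs with the largest shifts were often weak in the DF2 siRNA list. BBS12, a gene of the Bardet-Biedl syndrome group, had 600 nt and a fold enrichment of 10.3 in the DF2 siRNA list, against 2200 nt and 59.0 in the control list, so that its 5′ edge lay 1600 nt less far. At the 5′ edge ZNF354B, a zinc finger gene, lay 1200 nt less far and GOLGB1, which encodes the Golgi protein giantin, 1000 nt less far. ZEB2, a repressor of epithelial genes, had 800 nt and 11.6 in the DF2 siRNA list, against 2000 nt and 60.1 in the control list. SCG2, which encodes secretogranin II, had 600 nt and 7.03 in the DF2 siRNA list, against 1800 nt and 21.0 in the control list. Larger DF2 siRNA peaks were found too. FIBCD1, a chitin-binding receptor gene, reached 1000 nt further at its 3′ edge, with 1800 nt in the DF2 siRNA list, against 800 nt in the control list. GNAO1, a G protein alpha subunit, had 1200 nt and 101 in the DF2 siRNA list, against 600 nt and 79.5 in the control list. At the 3′ edge ZNF226, a zinc finger gene, reached 1000 nt less far and B3GNT4, a glycosyltransferase gene, 800 nt less far in the DF2 siRNA list. At the 5′ edge CCDC177, DNHD1 and FAM171A2 reached 600 nt further in the DF2 siRNA list. SETD1B, a histone H3 lysine methyltransferase, and TNK2, a tyrosine kinase, each had 1000 nt in the DF2 siRNA list, against 400 nt in the control list.

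Values of paired members ranked alike in both lists. Over all 1529 pairs, Spearman's rank correlation was 0.71 for fold enrichment and 0.90 for score. Over the 831 identical intervals it was 0.77 for fold enrichment and 0.91 for score, a description over peaks that share width and sequence. The identical member of highest score lay at SLC7A5, which encodes the large neutral amino acid transporter LAT1, with a score of 18429 and a fold enrichment of 161 in the DF2 siRNA list, against 21292 and 78.1 in the control list. CALR, the endoplasmic reticulum chaperone calreticulin, had 5016 and 67.1 in the DF2 siRNA list, against 7805 and 28.6 in the control list. JUND, an AP-1 factor, had a score of 4759 in the DF2 siRNA list, against 2795 in the control list, the only one of the 6 identical intervals of highest DF2 siRNA score with the higher score in the DF2 siRNA list. GALNT2, ZBED1 and LGALS3BP were the others, with scores of 5056, 4119 and 3694 in the DF2 siRNA list, against 6483, 5787 and 8140 in the control list.

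Unmatched members were narrow and weak. Their median fold enrichment was 11.4 in the DF2 siRNA list, against 25.3 in matched members, and 11.3 in the control list, against 36.1 in matched members. Their median width was 400 nt in both lists. The highest unmatched DF2 siRNA member lay at TP73, a relative of the tumour suppressor p53, with 33.6 as fold enrichment and 42 as score at chr1:3732839-3734038. ZBTB47, a zinc finger gene, followed with 26.5 and TENM4, a teneurin, with 25.6, and ESRRA, an orphan nuclear receptor, had 24.0. DAPK1, a death-associated kinase, and ARFRP1 had 23.8 each, CAPN15, a calpain family gene, had 21.8 and AP2A1, a clathrin adaptor subunit, had 21.1. In the control list the highest unmatched member lay at CCDC186, which had 98.5 as fold enrichment and 416 as score at chr10:114162461-114163260. OPRL1, the nociceptin receptor, had 58.5 with a score of 111, and TMPO, a lamina-associated protein, had 52.9 with a score of 1213. Among the other 5 of the 8 highest, the zinc finger genes ZNF250, ZNF431 and ZNF92 had 67.8, 56.4 and 49.1, XRCC6BP1 had 53.6 and RTKN2 had 47.5.

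A member lay in 2457 of 8556 genes with a DF2 siRNA peak (28.7%) and 2448 of 9971 genes with a control peak (24.6%). Both lists had a member in 1695 genes, 69.0% of the DF2 siRNA genes and 69.2% of the control genes. A member in the DF2 siRNA list alone was seen in 762 genes, of which 653 had some control peak, 378 of them a spliced stop codon peak. A member in the control list alone was seen in 753 genes, of which 491 had some DF2 siRNA peak, 173 of them a spliced stop codon peak. Genes without any peak in the other list numbered 109 for the DF2 siRNA list and 262 for the control list. How many of all genes with a peak lacked one in the other list was not counted. The control list also had peaks in more genes, so these counts are not read as a trait of members. Genes with a member in 1 list alone thus mostly had some peak in the other list.

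More than 1 member was found in 109 genes in the DF2 siRNA list, against 129 in the control list. The labels do not say which transcript's stop codon each of these members holds. RAI1, a transcriptional regulator gene, had DF2 siRNA members of 2000 and 600 nt with 153 and 66.4, and the control peaks there had 112 and 104. PKD1, which encodes polycystin 1 and has near-identical pseudogene copies that make its peaks uncertain, had DF2 siRNA members of 2200 and 600 nt with 152 and 26.1, and the control peaks there had 94.5 and 11.3. VEZT, which encodes the junction protein vezatin, had control members with 161 and 16.3, of which the weaker had no DF2 siRNA peak and the stronger a DF2 siRNA member with 57.7. Genes with a member had a further peak of any class in 50.9% of cases in the DF2 siRNA list, against 53.4% in the control list. Among other genes with a peak, at least 2 peaks were found in 31.9% in the DF2 siRNA list, against 34.2% in the control list. A gene with more peaks has more chances to hold a member, so a difference in this direction is built into the comparison.

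Overlapping genes touch some assignments. A peak on the opposite strand of the same list overlapped 40 DF2 siRNA members (1.56%) and 49 control members (1.90%). Members faced each other on opposite strands in 4 pairs in the DF2 siRNA list, against 6 in the control list, and FANCA with ZNF276 and DNM2 with TMED1 did so in both. The FANCA member had 66.1 in the DF2 siRNA list, against 35.9 in the control list, and the ZNF276 member 85.7 under DF2 siRNA and 51.9 in control. Whether the authors' calling used strand is not stated in the sources at hand, so reads of such pairs cannot be told apart. A further 59 DF2 siRNA and 66 control members overlapped a member named for another gene on the same strand and may hold the same reads.

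Developmental and immediate early factors, most of them genes of 1 exon, had members in 14 of 25 genes with a peak in each list. Both lists had a member in 12 of these genes. The share over all genes was 28.7% of those with a DF2 siRNA peak and 24.6% of those with a control peak. A gene of 1 exon has no junction for a peak to cross, so the rule itself favours such genes. The higher share is therefore not read as a trait of this family. Their members had a median fold enrichment of 68.7 in the DF2 siRNA list, against 92.2 in the control list, where all genes with a member had 23.8 under DF2 siRNA and 30.7 in control. IER2, an immediate early nuclear protein, had 150 in the DF2 siRNA list, against 129 in the control list over 1200 nt. CEBPD, a leucine zipper factor, had 74.5 in the DF2 siRNA list, against 107 in the control list over an identical 778 nt. HES1, the Notch-responsive repressor, had 73.5 in the DF2 siRNA list, against 70.7 in the control list. ZXDB had 98.2 in the DF2 siRNA list, against 124 in the control list, with its near-identical copy ZXDA making both uncertain. JUN, the AP-1 subunit, differed in class, with a 5′ UTR to stop codon peak of 2600 nt and 116 in the DF2 siRNA list, against a single-exon member of 800 nt and 119 in the control list.

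Among receptors and their inhibitors, Frizzled receptors, which bind Wnt ligands, had members in 6 of 9 genes with a peak in each list. Counts in this paragraph stand beside 28.7% of all genes with a DF2 siRNA peak and 24.6% of all with a control peak. The rule favours genes without a junction near the stop codon, and the exon structure of these genes was not examined. Higher shares are therefore not read as a trait of these families. FZD7 had 46.5 in the DF2 siRNA list, against 184 in the control list over the same 800 nt, and FZD5 had 82.4 under DF2 siRNA and 92.3 in control over the same 1200 nt. FZD4 had 27.3 under DF2 siRNA and 63.8 in control over the same 1800 nt, and FZD1 had 41.9 under DF2 siRNA and 62.6 in control. FZD9 began 600 nt further 5′ in the DF2 siRNA list, with 34.4 there and 50.1 in the control list. Suppressors of cytokine signalling had members in 5 of 7 genes in the DF2 siRNA list, against 4 of 8 in the control list. SOCS3 had 62.6 in the DF2 siRNA list, against 50.7 in the control list, and SOCS2 had 21.1 under DF2 siRNA and 22.01 in control. SOCS6 and SOCS4 had 86.8 and 34.0 in DF2 siRNA members, and their control peaks, with 121 and 136, reached the 5′ UTR. Leucine-rich repeat membrane proteins had members in 4 of 10 genes in the DF2 siRNA list, against 5 of 11 in the control list, and SLITRK5 had 49.2 in the DF2 siRNA list, against 185 in the control list. AMIGO3 had 120 in the DF2 siRNA list, against 133 in the control list. Dual-specificity phosphatases and Sprouty proteins, which restrain MAP kinase signalling, had members in 6 of 15 genes in the DF2 siRNA list, against 5 of 14 in the control list. DUSP8 had 80.9 in a DF2 siRNA member and 51.8 in a control coding peak. DUSP1 had 25.5 in the DF2 siRNA list, against 38.2 in the control list over the same 800 nt. DUSP5 had 61.0 and DUSP4 35.3 in spliced DF2 siRNA peaks, against 74.3 for DUSP5 and 41.0 for DUSP4 in control members. DUSP7 had 22.6 in a DF2 siRNA member and 15.9 in a control 3′ UTR peak. SPRY1 had 51.0 in a DF2 siRNA peak that reached the 5′ UTR and 131 in its control member.

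BTB and KCTD proteins, many of them transcriptional repressors or ubiquitin ligase adaptors, had members in 17 of 30 genes in the DF2 siRNA list, against 11 of 29 in the control list. The shares were 56.7% in the DF2 siRNA list, beside 28.7% of all genes, and 37.9% in the control list, beside 24.6%. Here too the rule favours genes without a junction near the stop codon, so these shares are not read as a trait of the family. Of the 8 genes with a DF2 siRNA member alone, ZBTB39, ZBTB1, ZBTB5, ZBTB6 and ZBTB43 had control peaks that reached the 5′ UTR. ZBTB39 had 600 nt and 23.1 in the DF2 siRNA list, against 3200 nt and 114 in the control list. ZBTB2 had 57.7 in the DF2 siRNA list, against 158 in the control list, and ZBTB21 had 42.6 under DF2 siRNA and 195 in control. In ZBTB38, DF2 siRNA members of 600 and 800 nt lay inside control members of 2000 and 3000 nt, with 16.4 and 11.1 in the DF2 siRNA list, against 77.1 and 70.5 in the control list. The DF2 siRNA peaks that shared most bases with these ZBTB38 control members were others of 1200 nt without a stop codon label, with 28.3 for the coding peak and 46.6 for the 3′ UTR peak. The strongest of the KCTD15 members had 60.3 in the DF2 siRNA list, against 48.2 in the control list. ZBTB10 had 77.4 in a DF2 siRNA member and 138 in a spliced control peak. HIC2 was much alike, with 59.0 in the DF2 siRNA list, against 60.3 in the control list.

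The genes that write and read m6A had members in 5 of 19 genes in the DF2 siRNA list, against 6 of 19 in the control list, near the share over all genes. RBM15B, an adaptor of the writer complex, had 116 over 3000 nt in the DF2 siRNA list, against 103 over 3200 nt in the control list. CBLL1, which encodes the writer subunit HAKAI, had 42.8 over 600 nt in the DF2 siRNA list, against 60.6 over 1200 nt in the control list, and WTAP, another subunit, had 22.2 over 600 nt under DF2 siRNA and 34.9 over 1000 nt in control. METTL16, a separate methyltransferase, had 119 in a spliced DF2 siRNA peak and 73.1 in its control member. Deadenylation and decay genes had members in 1 of 17 genes with a peak in the DF2 siRNA list (5.88%, beside 28.7% of all genes), against 3 of 17 in the control list (17.6%, beside 24.6%). CNOT6, a deadenylase of the CCR4-NOT complex, had 23.1 in the DF2 siRNA list, against 19.5 in the control list over the same 400 nt. EDC3, a decapping factor, had 26.3 in a spliced DF2 siRNA peak and 24.2 in its control member, and CNOT11 had a control member with 15.3 and no DF2 siRNA peak there.

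Cell cycle cyclins and kinases had members in 4 of 18 genes in the DF2 siRNA list, against 5 of 14 in the control list. The shares were 22.2% in the DF2 siRNA list, beside 28.7% of all genes, and 35.7% in the control list, beside 24.6%. CDK9, the kinase of P-TEFb, had 111 in the DF2 siRNA list, against 73.9 in the control list over the same 1400 nt. PLK2, a polo-like kinase, had 50.3 in the DF2 siRNA list, against 83.4 in the control list over the same 768 nt. CDC25A, a cell cycle phosphatase, had 79.0 in a spliced DF2 siRNA peak and 62.8 in its control member. AURKA, a mitotic kinase, had 13.9 in the DF2 siRNA list, against 31.0 in the control list over the same 800 nt. Cytosolic ribosomal protein genes rarely had a peak, 12 of 77 in the DF2 siRNA list, against 20 of 77 in the control list, and of these a member was found in 4 of 12 in the DF2 siRNA list, against 5 of 20 in the control list. RPL28 had up to 56.7 in the DF2 siRNA list, against 23.8 in the control list over the same 600 nt. RPL13 had 45.9 in a DF2 siRNA member and 44.2 in a control 3′ UTR peak, RPL36 had 22.2 under DF2 siRNA and 16.4 in control, and RPL4 had a control member with 19.6. Ribosomal protein genes have many near-identical processed copies, so these values are uncertain. Oxidative phosphorylation genes had a peak in 5 of 34 genes in the DF2 siRNA list, against 8 of 34 in the control list, and a member in 0 of these in either list. No test was made on any gene list.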

How the data were processed

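Per the labels, m6A immunoprecipitates and inputs of U2OS cells were sequenced; the aligner was HISAT2 and the build hg38, per the submitters' processing notes. The peak caller, its settings, the annotation and the depth per library are not stated in the sources used here, and the input and read data were not analysed here. The authors deposited 1 peak list per condition. It holds a fold enrichment, which the file headers name as such and which is a ratio that the authors deposited per peak, a score that the authors deposited without a stated meaning, and a −log10 value. Per the file headers, the −log10 value belongs to an FDR for DF2 siRNA and to a p-value for control. The deposited block sizes of minus-strand peaks ran in the order of the transcript and their starts in the order of the genome: as written, 3074 DF2 siRNA and 4189 control minus-strand peaks did not fill their span. The sizes were reversed, after which every peak did; membership does not depend on this.

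Overlap needed 1 shared exonic base on the same strand, computed in Python 3.11.15 with pandas 2.3.3, numpy 2.4.6, scipy 1.17.1 and matplotlib 3.10.9. The overlap count was checked on copies of control members, part of them moved far away, and gave back the shares that were set. The choice of partner and the edge shifts of pairs were not checked in this way. A partner is the peak that shares most bases. Genes are counted by Ensembl identifier in the peak name. No test between conditions was possible with 1 list each, and p-values are not given. Because depth is unknown, no detection limit is given. Alternatives changed the overlap rule, the authors' threshold, width, gap, strand, chromosomes, labels and list length.

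The members and the 15 lists of genes were chosen with earlier results of these data known, and 1 of these lists is not reported here. Genes were named by rule: the 10 members of highest fold enrichment per list, the 8 highest unmatched, the 3 widest, the 6 identical intervals of highest DF2 siRNA score, the 4 largest shifts per edge and direction, the 3 highest genes with several members, the 3 highest per list of genes with up to 3 found in 1 peak list alone, and YTHDF2. Within the lists of genes, not every gene that the rule reaches is printed. The choice among these was made after their values were seen, and so was that of genes beside the rule, among them the examples per class of partner, the genes with printed sequence and further members of the lists of genes.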

Additional observations from a re-analysis of the deposited data

How the results depend on the processing

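The lists give no depth and no replicates, and edges move in steps of about 200 nt, so differences of that size are not resolved. No paired analysis was possible because the peak lists carry no replicate columns. The share of DF2 siRNA members overlapped by a control peak was 83.3% with a reciprocal overlap of 50%, 79.9% in members of at most 400 nt and 90.2% against a control list shortened by fold enrichment to equal length. The share of control members overlapped by a DF2 siRNA peak was 74.8% with the reciprocal overlap, 78.0% at a p-value or FDR 100 times smaller, 53.5% at 400 nt or less and 86.1% with lists of equal length. The member share of the DF2 siRNA list was 22.4% at the smaller p-value or FDR and 14.4% at 400 nt or less, and that of the control list 18.3% and 12.2%. The difference in overlapped share between single-exon and spliced stop codon peaks in the DF2 siRNA list was -0.60 points within width classes, -1.53 within score quintiles and -6.72 with the reciprocal overlap. The same difference in the control list reversed to 3.25 points within width classes and to 2.10 within score quintiles; the cause was not tested. The share of moved 3′ edges that lay less far in the DF2 siRNA peak was 70.3% in score quintiles 3 to 5 of both lists and 71.5% where both widths were a multiple of 200 nt, alternatives chosen after seeing the data. The other 12 alternatives moved their value by less than its 95% interval. They include the limit to chromosomes 1 to 22 and X, which removed no peak and so could not move a value. They also include the control difference with the reciprocal overlap, -2.26 points, whose own interval (-4.55 to 0.02) includes 0. The intervals of the DF2 siRNA difference within width classes (-2.32 to 1.12) and score quintiles (-3.15 to 0.09) include 0 too.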
